A study of Mus musculus with 6 samples.

Results

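The NDRG (N-myc downstream-regulated gene) family has 4 genes in the mouse, Ndrg1, Ndrg2, Ndrg3 and Ndrg4. All 4 were measured, each by 1 probe set that the platform annotation assigns to that symbol alone, among 19938 genes tested. The probe sets are 10429140 (Ndrg1), 10419578 (Ndrg2), 10489065 (Ndrg3) and 10574384 (Ndrg4), and no second probe set of a member was in the table. Probe sets were to be chosen by the highest mean log2 signal over all 6 arrays, a choice that did not arise. The family was proposed with the fall of Ndrg2 in these arrays known. The values of Ndrg2 are therefore given as a description with their error and without a p-value, and nothing is read from its call.

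NDRG proteins have the fold of alpha/beta-hydrolases but lack the residues of an active hydrolase, and no enzyme activity is known for them. Ndrg1 takes the family's name from its repression by N-myc. It is induced by low oxygen, metals and differentiation, its protein is phosphorylated by the kinase SGK1 and then by GSK3, and its loss causes a demyelinating neuropathy. Ndrg2 is best known from astrocytes and as a growth-restraining gene, Ndrg3 encodes a protein that binds lactate and is removed in an oxygen-dependent way through the prolyl hydroxylase PHD2 and the VHL protein, and Ndrg4 is best known from brain and heart.

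The arrays compare mouse embryonic stem (ES) cells of the Oct4-GiP reporter line, 3 untreated and 3 given vitamin C as L-ascorbic acid 2-phosphate at 200 μg/ml for 72 hours. Both groups grew on 0.1% gelatin in N2B27 medium with LIF (1000 U/ml), the MEK inhibitor PD0325901 (1 μM) and the GSK3β inhibitor CHIR99021 (3 μM), so the kinase that acts on NDRG1 after SGK1 was inhibited in treated and untreated cells alike. The design text speaks of biological triplicates, and all arrays come from 1 reporter line. A value is a log2 signal, on which 1 unit is a 2-fold step, and it has meaning only against the same probe set on another array. Fewer cells that express a gene and less RNA per cell cannot be told apart in such bulk samples.

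The RefSeq promoter table (GRCm38.p6) held windows for Ndrg2, Ndrg3 and Ndrg4, 9 in all. The most upstream of each gene's windows are shown. Which start site these cells use, and any link of these sequences to the differences with vitamin C, was not tested. Each line gives the 250 bases before the start site, with CG dinucleotides, the sites of DNA methylation, in capitals.
Ndrg2 (chr14:51914005-51914254, minus strand): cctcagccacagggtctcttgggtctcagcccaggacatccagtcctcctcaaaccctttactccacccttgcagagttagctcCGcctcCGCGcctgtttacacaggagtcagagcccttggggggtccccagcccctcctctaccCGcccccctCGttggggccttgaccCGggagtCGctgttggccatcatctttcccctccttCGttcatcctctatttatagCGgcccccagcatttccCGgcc
Ndrg3 (chr2:156992112-156992361, minus strand): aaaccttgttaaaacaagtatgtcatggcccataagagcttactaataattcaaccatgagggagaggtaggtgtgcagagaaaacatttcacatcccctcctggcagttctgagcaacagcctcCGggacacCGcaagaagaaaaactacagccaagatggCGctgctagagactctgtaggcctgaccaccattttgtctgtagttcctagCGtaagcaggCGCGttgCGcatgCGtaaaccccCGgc
Ndrg4 (chr8:95676724-95676973, plus strand): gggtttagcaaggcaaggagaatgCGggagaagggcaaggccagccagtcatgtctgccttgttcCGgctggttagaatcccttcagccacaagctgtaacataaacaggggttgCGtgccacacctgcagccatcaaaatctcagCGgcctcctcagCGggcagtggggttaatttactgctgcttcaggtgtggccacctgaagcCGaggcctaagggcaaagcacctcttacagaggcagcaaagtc

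These stretches hold 10, 9 and 6 CG dinucleotides in the order shown. In the full windows of 300 bases, which run from 250 bases before to 50 after a start site, the most upstream window of Ndrg2 had 11 CG dinucleotides, more than 58.6% of the 32851 windows in the table. The other windows of Ndrg2 had 14 and 20, those of Ndrg3 14 and 34, and those of Ndrg4 7, 31, 40 and 11. The median over all windows was 7. DNA methylation was not measured on these arrays.

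The windows were also searched on both strands for ACGTG, a form of the core of the element bound by hypoxia-inducible factors (HIF). The other form of that core, GCGTG, was not counted. The search also covered CACGTG, the E-box bound by MYC with MAX, which contains ACGTG. Of the 9 windows 1 held either motif, a window of Ndrg4, against 19.6% of all windows for ACGTG and 7.15% for CACGTG. That match is shown with its flanks and with the E-box in capitals.
Ndrg4 (chr8:95677716-95677739, plus strand): ccacccaccCACGTGggcacgccc
No window of Ndrg2 or Ndrg3 held ACGTG or CACGTG, which describes these windows only. Windows of Ndrg2, Ndrg3 and Ndrg4 do hold GCGTG, so a HIF core is not absent from them.

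With vitamin C, Ndrg2 and Ndrg1 were lower by 1.60 and 0.82 on the log2 scale, and Ndrg4 and Ndrg3 differed by less, -0.38 and -0.20. In the fit over all genes (limma, Benjamini-Hochberg adjusted p under 0.05), 2 of the 4 members (Ndrg2 and Ndrg1) were called lower, none was called higher and 2 stayed above the threshold, where 7.4% of all genes were called lower and 5.75% higher. The fall of Ndrg2 was known when the family was chosen, so nothing is read from this count. The median difference of the 4 members was -0.60, beside 0.01 over all genes tested. It includes Ndrg2, so nothing is read from this median either.

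Ndrg2 had log2 signals of 8.87, 8.66 and 8.97 in untreated replicates 1, 2 and 3 and of 7.22, 7.23 and 7.27 in vitamin C replicates 1, 2 and 3. The groups were separated by a gap of 1.40 between the lowest untreated and the highest vitamin C array, and the vitamin C arrays lay within 0.04 of each other. The mean went from 8.84 ± 0.16 (SD, n = 3) to 7.24 ± 0.023 (SD, n = 3). On the log2 scale the difference was -1.60 ± 0.09 (SE; 95% interval -1.80 to -1.39), or 3.02-fold lower. Of the 19938 genes, 5 fell further.

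Ndrg1 had log2 signals of 6.80, 6.94 and 6.95 untreated and of 5.98, 6.26 and 5.97 with vitamin C. Every vitamin C array was below every untreated array, with vitamin C replicate 2 the highest of its group. The mean went from 6.90 ± 0.085 to 6.07 ± 0.16 (SD, n = 3 each), and the fall of 0.82 ± 0.10 (SE; 95% interval -1.05 to -0.60), or 1.77-fold, passed the limma test over all genes (adjusted p = 0.00242). With any 1 array left out it passed as well (adjusted p = 0.00365 to 0.0143). Of all genes tested, 102 fell further than Ndrg1.

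Ndrg4 had log2 signals of 6.12, 6.18 and 6.13 untreated and of 5.92, 5.48 and 5.89 with vitamin C. The groups did not overlap, and vitamin C replicate 2 lay lowest. The means were 6.14 ± 0.033 and 5.76 ± 0.24 (SD, n = 3 each), and the difference of -0.38 ± 0.12 (SE; unadjusted 95% interval -0.66 to -0.11) did not pass the limma test (adjusted p = 0.0760). Without vitamin C replicate 2 the difference was -0.24 (adjusted p = 0.0842). Under the 15 other settings the adjusted p ran from 0.0296 to 0.199, and it was under 0.05 in 3 of them, a trended and robust spread model (0.0296), arrays centred on their median (0.0450) and dim genes left out (0.0468).

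Ndrg3 had log2 signals of 8.47, 8.57 and 8.64 untreated and of 8.42, 8.43 and 8.23 with vitamin C. The gap between the groups was 0.04, smaller than the spread within either group. The means were 8.56 ± 0.084 and 8.36 ± 0.12 (SD, n = 3 each), and the difference of -0.20 ± 0.08 (SE; unadjusted 95% interval -0.39 to -0.01) did not pass the limma test (adjusted p = 0.154). It passed with the trended and robust spread model (adjusted p = 0.0455), and the other settings gave up to 0.341.

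**Figure D1:**
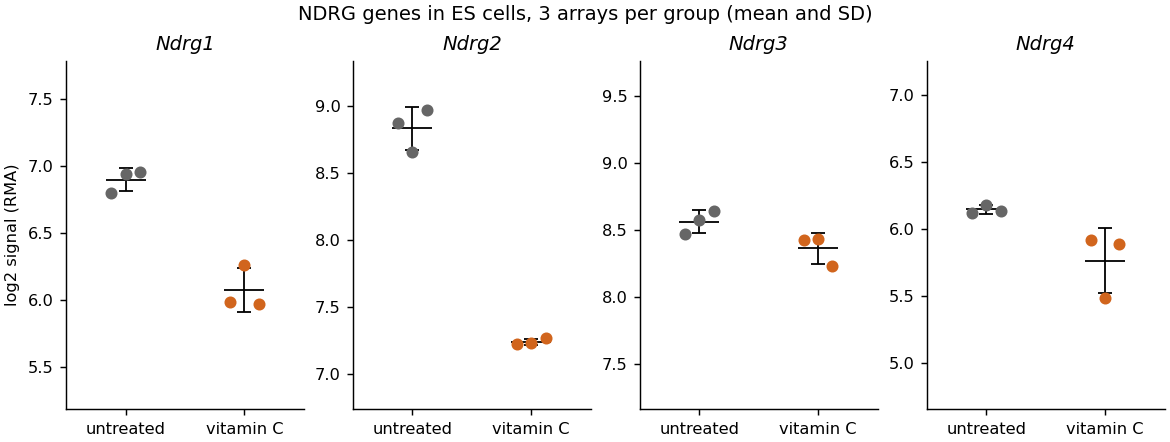
Log2 signal of each NDRG gene on the 3 untreated (grey) and 3 vitamin C (orange) arrays, with the group mean and SD as bars; every panel spans the same number of log2 units. Ndrg2 shows the widest gap between the groups (1.40), Ndrg1 a gap of 0.54, Ndrg4 one of 0.20 and Ndrg3 one of 0.04.

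For all 4 members every vitamin C array was below every untreated array, and the groups also did not overlap for 35% of all genes tested. The members' differences were not tested against each other. All 24 member values lay above the lower quartile of their array (3.99 to 4.05), and 23 lay above the array's median (5.52 to 5.60), the exception being Ndrg4 in vitamin C replicate 2. Detection calls were not used here.

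**Figure D2:**
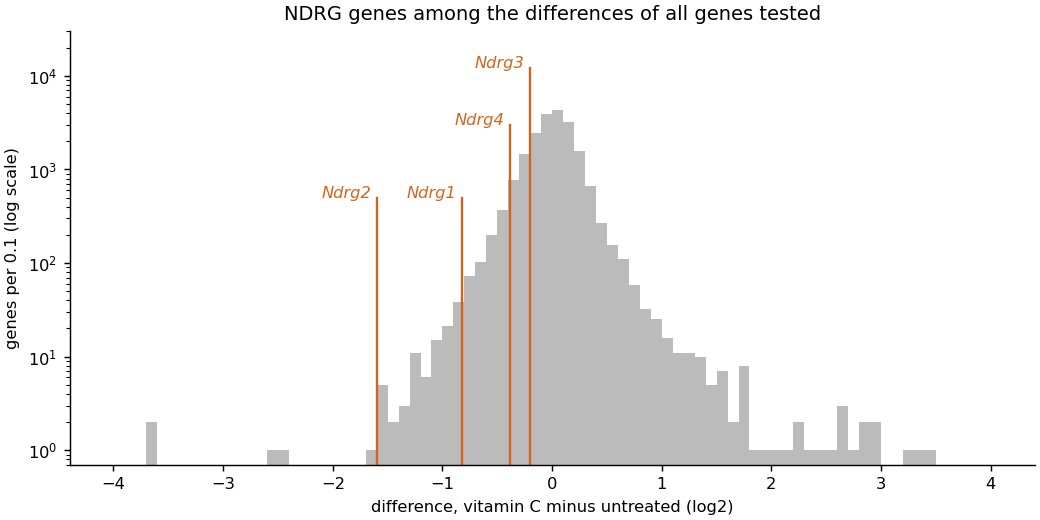
Number of genes (log scale) by their log2 difference, vitamin C minus untreated, in steps of 0.1, with the 4 NDRG genes as orange lines whose height carries no value. Ndrg2 lies at the far left edge, where 5 genes fell further, Ndrg1 has 102 genes beyond it, Ndrg4 990 and Ndrg3 3062.

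The genes beside the members on the chromosome were compared by taking the nearest 2 measured genes on each side in RefSeq gene order. Of the 16 neighbours 0 passed the limma test, where 13.2% of all genes did, and 2 of them (Rab5if and Soga1, both beside Ndrg3) had an unadjusted p under 0.05. Rab5if passed with the trended and robust spread model (adjusted p = 0.0331). The neighbours of Ndrg2 are Mettl17 (-0.20 ± 0.16 SE), the zinc transporter gene Slc39a2 (0.09 ± 0.08 SE), Tppp2 (-0.08 ± 0.09 SE) and Rnase13 (-0.06 ± 0.08 SE), with adjusted p-values of 0.443, 0.494, 0.590 and 0.697. Each of their unadjusted 95% intervals lay above that of Ndrg2, the lowest reaching -0.56 (Mettl17). The fall of Ndrg2 was known when the family was chosen, so nothing is read from this separation. Beside Ndrg1 lie Sla (-0.11), Ccn4 (-0.0002), the sialyltransferase gene St3gal1 (0.03) and Zfat (-0.06), and the lowest of their intervals reached -0.45 (Sla), against an upper bound of -0.60 for Ndrg1. Rnase13, Tppp2, Sla and Ccn4 were dim, with mean signals at percentiles 15.3, 23.3, 15.5 and 24.0 of all genes. RMA compresses differences of dim probe sets, so a change in these neighbours could be missed. The intervals of Ndrg1 and Sla overlapped without untreated replicate 3 (bounds of -0.53 and -0.57), without vitamin C replicate 1 (-0.52 and -0.57) and without moderation (-0.53 and -0.62). Around Ndrg3 the differences were 0.19 (Rab5if), 0.04 (Sla2), -0.20 (Dsn1, a kinetochore gene) and 0.22 (Soga1), and around Ndrg4 they were 0.05 (Prss54), -0.07 (Gins3), -0.13 (Setd6) and -0.01 (Cnot1). The intervals of Ndrg3 and Ndrg4 overlapped those of some of their neighbours. With 1 array left out, the differences of the 16 neighbours lay between -0.35 (Mettl17) and 0.30 (Soga1), and 6 of them took either sign, among them Sla (-0.21 to 0.06), Ccn4 (-0.06 to 0.11) and St3gal1 (-0.03 to 0.13). The difference of Dsn1 was -0.10 without vitamin C replicate 1, and that of Rab5if ran from 0.11 to 0.22.

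**Figure D3:**
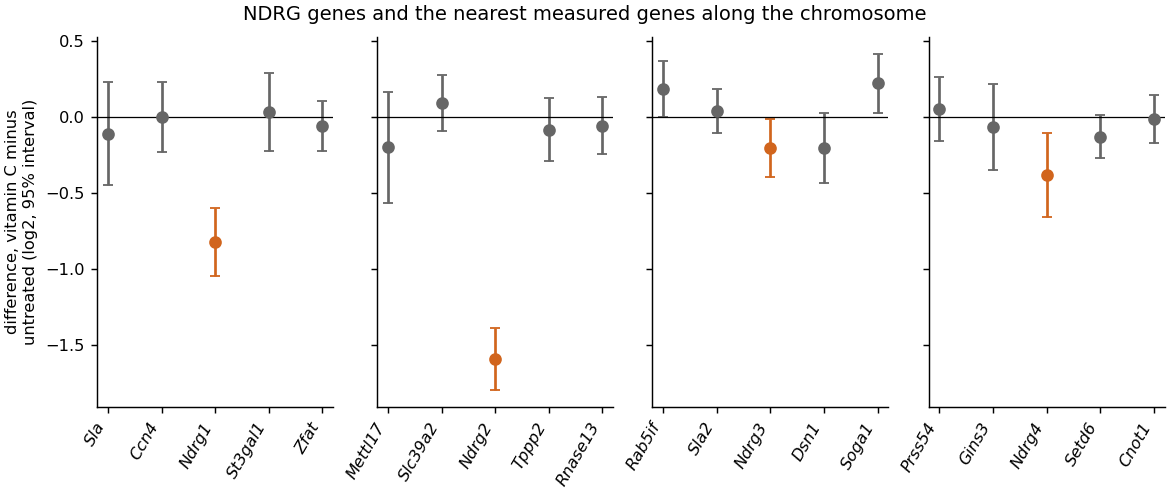
Log2 difference, vitamin C minus untreated, with its unadjusted 95% interval, for each NDRG gene (orange) and the 2 nearest measured genes on each side (grey) in chromosome order. With all 6 arrays and the moderated fit, Ndrg1 and Ndrg2 lie below all their neighbours' intervals, and Ndrg3 and Ndrg4 do not. The fall of Ndrg2 was known beforehand, so nothing is read from its separation. Sla and Ccn4 beside Ndrg1, and Tppp2 and Rnase13 beside Ndrg2, were dim.

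The Abhd genes encode other proteins with the alpha/beta-hydrolase fold. Of 21 measured, 2 passed as higher, 2 as lower and 17 in neither direction (median difference -0.06). Over all genes tested, 5.75% were called higher and 7.4% lower, shares that stand beside every list count below. Abhd5, a lipase co-activator, rose by 0.64 ± 0.06 (SE, limma adjusted p = 0.00153), and Abhd14b fell by 0.83 ± 0.12 (SE, adjusted p = 0.00523; 0.0507 without moderation). Abhd17c, which encodes a depalmitoylase, rose by 0.25 (adjusted p = 0.0310), which was not reached when any 1 of the 6 arrays was left out (adjusted p = 0.0701 to 0.0943). Abhd14a fell by 0.36 (adjusted p = 0.0376), and the call went when untreated replicate 2 or 3 or vitamin C replicate 1 or 3 was left out (0.103 to 0.113). With 1 array left out, 2 or 3 Abhd genes were called.

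Of 13 genes of the MYC and MAX network, which holds the repressor that names the family, 4 passed as higher, 3 as lower and 6 in neither direction (median 0.14). Mycn, the gene of N-myc, went from 7.50 ± 0.016 to 7.83 ± 0.013 (SD, n = 3 each), a rise of 0.33 ± 0.06 (SE, limma adjusted p = 0.0108). Myc rose by 0.60 ± 0.06 (SE, adjusted p = 0.00152). Max, the common partner, rose by 0.35 (adjusted p = 0.0147; 0.0527 without untreated replicate 2), and Mga, which encodes a MAX partner that represses germline genes, fell by 0.74 (adjusted p = 0.000942). The number called was 3 without untreated replicate 2 and 4 without untreated replicate 1 or vitamin C replicate 1. Thus Ndrg1 and Ndrg2 were lower on the same arrays on which Mycn and Myc were higher, and a link between them was not tested.

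Among 16 measured HIF subunits and oxygen-sensing regulators, 2 passed as higher, 4 as lower and 10 in neither direction (median 0.02). Vhl, whose protein marks HIF-alpha and NDRG3 for removal, went from 8.08 ± 0.027 to 7.70 ± 0.049 (SD, n = 3 each), a fall of 0.38 ± 0.06 (SE, limma adjusted p = 0.00812). Egln1, the gene of PHD2, stood at -0.22 ± 0.08 (SE, adjusted p = 0.120), short of the threshold. Egln3, a HIF prolyl hydroxylase gene that is itself a HIF target, fell by 0.94 ± 0.08 (SE, adjusted p = 0.000769), and Hif3a fell by 0.95 ± 0.10 (SE, adjusted p = 0.00204). Hif1a rose by 0.29 (adjusted p = 0.0180), and the call went when untreated replicate 1 or 3 or vitamin C replicate 1 or 2 was dropped (0.0572 to 0.0619), and the elongin C gene Eloc rose by 0.30 (adjusted p = 0.0179), and the call went when untreated replicate 2 or 3 or vitamin C replicate 1 or 3 was dropped (0.0563 to 0.0628). With 1 array left out, 3 to 5 of the 16 were called, and the count was 3 without untreated replicate 3 or vitamin C replicate 1 and 4 without untreated replicate 1 or 2 or vitamin C replicate 3.

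Of 38 measured HIF target genes, a list to which Ndrg1 could be added, 22 passed as lower, 2 as higher and 14 in neither direction (median -0.41; 22 or 23 called with 1 array left out). The shares over all genes were 7.4% lower and 5.75% higher. Ldha, whose enzyme makes the lactate that NDRG3 binds, fell by 1.28 ± 0.07 (SE, limma adjusted p = 0.000143). Bnip3 (-3.70), Ndufa4l2 (-3.64), Aldoc (-2.55) and Slc16a3 (-2.44) fell further than Ndrg2 and Ndrg1. Every other gene of the list, Tpi1 (-1.51) among them, fell less than Ndrg2 or rose. The fall of Ndrg1 lay close to those of Bhlhe40 (-0.94) and Egln3 (-0.94).

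Of 14 measured genes for the kinases that act on NDRG proteins and for their control, 1 was called higher, 2 lower and 11 neither way (median 0.04), where 5.75% of all genes were called higher and 7.4% lower. Sgk1, the NDRG1 kinase gene, went from 9.12 ± 0.024 to 9.83 ± 0.017 (SD, n = 3 each), 1.63-fold higher (difference 0.71 ± 0.06 SE, limma adjusted p = 0.000620). Its relative Sgk3 fell by 0.54 ± 0.07 (SE, adjusted p = 0.00367), and Mlst8, an mTOR complex subunit gene, fell by 0.47 ± 0.08 (SE, adjusted p = 0.0115; 0.0554 without moderation). Gsk3b stood at 0.25 ± 0.07 (SE, adjusted p = 0.0632), short of the threshold, and passed with the trended and robust model (0.0184), a second quantile normalization (0.0414) or dim genes left out (0.0357). NDRG phosphorylation was not measured.

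Of 18 measured regulators reported for NDRG genes, 1 passed as higher, 0 as lower and 17 in neither direction (median 0.07). The 1 was Nr3c1, the glucocorticoid receptor gene, with a rise of 0.38 ± 0.07 (SE, limma adjusted p = 0.0173), not called without vitamin C replicate 2 (0.0549) or 3 (0.0579) or without moderation (0.0571). Wt1 differed by 0.23 ± 0.12 (SE, adjusted p = 0.236), and by 0.12 without vitamin C replicate 3, the lowest of the values with 1 array left out. Of 23 measured partners, 3 passed as higher, 2 as lower and 18 in neither direction (median 0.07), and with 1 array left out 1 or 2 were called. Rtn1, a reticulon gene, rose by 0.43 ± 0.08 (SE, adjusted p = 0.0140; 0.0577 without moderation). Araf (0.27), Map2k1 (-0.27) and the endosomal GTPase gene Rab4b (-0.26) were called at adjusted p-values of 0.0398, 0.0398 and 0.0394, and each call was lost without any 1 of the 6 arrays (0.0537 to 0.117).

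**Figure D4:**
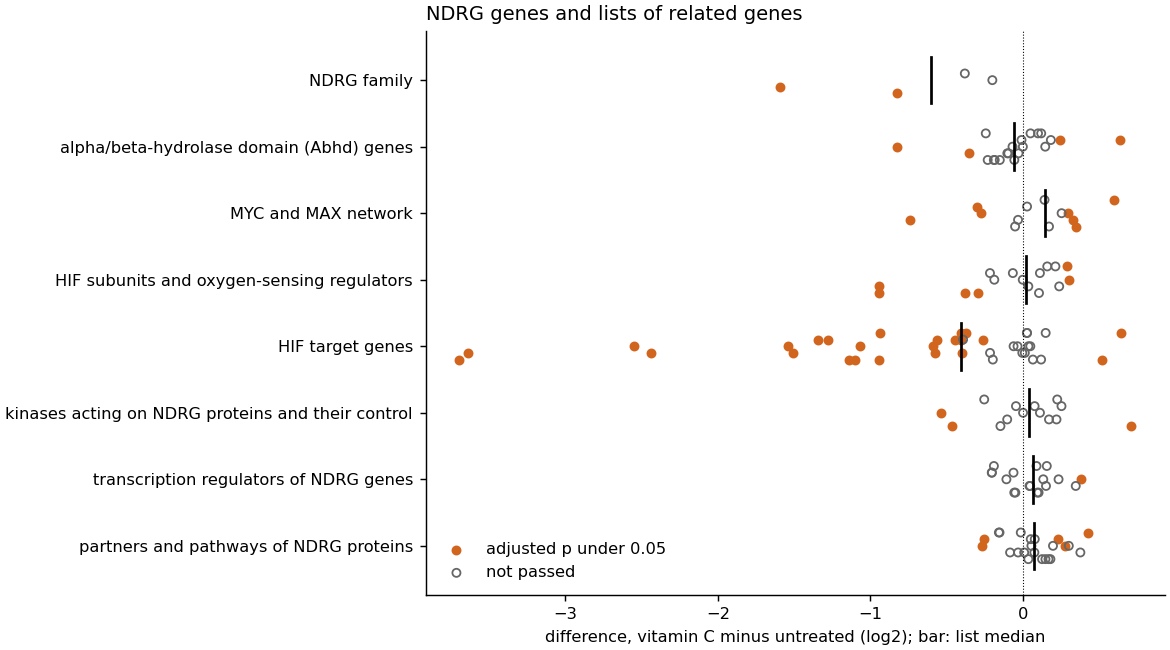
Log2 difference, vitamin C minus untreated, of each measured gene in the NDRG family and in 7 lists of related genes; filled orange points passed the adjusted p of 0.05, open points did not, and black bars are list medians. The medians are -0.60 for the NDRG genes and -0.41 for the HIF targets and lie between -0.06 and 0.14 for the other lists. The NDRG median includes Ndrg2, whose fall was known when the family was chosen, and nothing is read from it.

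The genes whose array pattern lay closest to that of Ndrg1 and Ndrg2 were found by the Euclidean distance between log2 values centred on each gene's mean over the 6 arrays. Nearest to Ndrg2 were the imprinted growth regulator Phlda2 (distance 0.18, difference -1.55), the glutathione transferase gene Gstm3 (0.22, -1.52), the glycolytic gene Tpi1 (0.27, -1.51), Acbd7 (0.31, -1.43) and the phosphofructokinase gene Pfkl (0.34, -1.54). Nearest to Ndrg1 were Anxa2, a membrane-binding annexin gene (0.12, -0.88), Primpol, a primase-polymerase gene (0.13, -0.76), Padi2 (0.16, -0.87), Glb1l2 (0.19, -0.86) and Pianp (0.20, -0.85). Tpi1 and Pfkl are on the HIF target list, and none of the 5 genes nearest to Ndrg1 is. The distances rest mostly on the difference between the groups, which all these genes share in size, and within the vitamin C group Ndrg1 and its 5 nearest genes were all highest in replicate 2. These genes were picked by closeness over the same array values, so the choice itself favours a shared pattern. No predicted gene was passed over in either ranking.

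**Figure D5:**
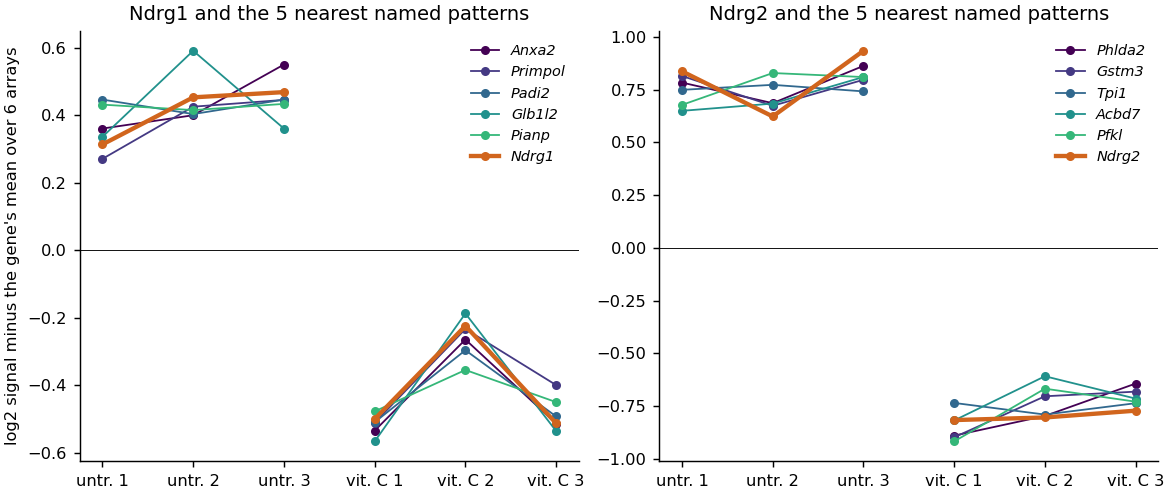
Log2 signal minus the gene's own mean, on each of the 6 arrays, for Ndrg1 (left) and Ndrg2 (right) as thick orange lines and for the 5 nearest named genes; lines join arrays of a group only to guide the eye. Ndrg1 and its neighbours in pattern share the highest vitamin C value in replicate 2, which their choice by closeness over these same values favours.

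Across the whole series, 2623 of 19938 genes (13.2%) were called, and 1483 to 1721 with any 1 array left out. Arrays of a group correlated at 0.995 to 0.996 across genes and arrays of different groups at 0.989 to 0.990. Of 21 naive ES cell markers 7 passed as higher, 1 as lower and 13 in neither direction (3 to 5 called with any 1 array left out), and the mean log2 signal of the list was 9.88 to 9.90 untreated and 9.96 to 10.00 with vitamin C. Pou5f1, the gene of Oct4, differed by -0.12 ± 0.06 (SE, limma adjusted p = 0.235; 0.0125 with the trended and robust model). Nanog rose by 0.29 ± 0.06 (SE, adjusted p = 0.0168), and its call went when untreated replicate 1 or 3 or vitamin C replicate 1 or 3 was dropped (0.0530 to 0.0577).

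Markers of tissues in which the family is best known, and of other cells that the cultures could hold, were examined as well. Beside their counts stand the 5.75% of all genes called higher and the 7.4% called lower. Of 16 measured astrocyte and oligodendrocyte markers 1 was higher, 1 lower and 14 called neither way, and the list's mean log2 signal was 5.50 to 5.59 untreated and 5.58 to 5.66 with vitamin C. Of 18 cardiomyocyte and muscle markers 2 were lower and 16 called neither way (5.70 to 5.76 and 5.64 to 5.73; 1 called without vitamin C replicate 1 or 3). Of 17 neuroectoderm markers 3 were higher, 1 lower and 13 neither (5.84 to 5.87 and 5.97 to 6.06). Of 20 fibroblast markers 8 were higher, 1 lower and 11 neither (5.73 to 5.83 and 6.17 to 6.21), of 16 primitive endoderm markers 4 were higher and 12 neither (5.73 to 5.82 and 5.94 to 5.97), and of 15 trophectoderm markers 1 was higher, 4 lower and 10 neither (6.20 to 6.23 and 6.07 to 6.08; 1 to 3 called with any 1 array left out). The part of such cells in the NDRG differences was not tested.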

How the data were processed

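RNA of 6 samples was measured on 1-colour Affymetrix arrays, with 1 deposited column per array. The range of the deposited values is that of log2 signals, and the submitters' processing notes name RMA, with software and version not given in the sources used here. RMA usually equalizes the arrays' distributions, which hides a change common to all genes, and it compresses differences of dim probe sets. Of 35557 probe sets, 21789 had 1 symbol, 1621 several and 12147 are unnamed here. Each of the 19938 genes was represented by its brightest probe set on average (999 had more than 1). Gene order came from the RefSeq table of GRCm38.p6, in which 19855 of the tested genes matched by gene ID.

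Sample titles gave the groups. Differences, vitamin C minus untreated, were fitted with lmFit and eBayes of limma 3.58.1 under R 4.3.3, without covariates, with p-values adjusted over all genes by the Benjamini-Hochberg method and a call at 0.05, and every adjusted p is from this fit unless another setting is named. Alternatives changed the spread model, scaling, dim-gene filter, probe-set handling, array weights, replicate block and arrays included. The code was tested on simulated data. Members and gene lists were chosen with earlier results of these data known. Up to 4 called members with the smallest p were named per related-gene list, with Mycn, Myc, Hif1a, Egln1, Egln3, Vhl, Sgk1, Gsk3b, Wt1, Pou5f1 and Nanog named in any case, and marker lists are given as counts. Bhlhe40, Ldha and Slc16a3 were picked with their values in view. The number of arrays limits the precision. Figures were drawn with matplotlib 3.10.9.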

Additional observations from a re-analysis of the deposited data

How the results depend on the processing

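Under all 15 alternatives run, the differences of the 4 NDRG genes stayed negative. For most of these settings the sign was fixed in advance. The groups did not overlap for any member, so leaving out or weighting arrays could not turn it. Other settings leave the difference itself unchanged, and only centring and the second quantile normalization could have moved the sign. The difference of Ndrg2, given as a description, ran from -1.68 to -1.53. Ndrg1 ran from -0.92 to -0.77 and kept its call (adjusted p = 3.29e-05 to 0.0317). Ndrg3 (-0.25 to -0.13) and Ndrg4 (-0.46 to -0.24) did not pass in the reported fit. With the trended and robust spread Ndrg3 (-0.20) and Ndrg4 (-0.38) passed, and Ndrg4 passed also with arrays centred on their median (-0.42) and without genes below the lower quartile of gene means (-0.38). The cause was not tested. The members had no second probe set, so a fit on another probe set was not run.

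The count of called genes was 2623 in the reported fit, 4151 with the trended and robust spread, 1545 without moderation, 137 with at least a 2-fold change required, and 1483 to 1721 with 1 array left out, from fits with fewer arrays. Centring moved the share of calls that were higher from 43.7% to 32.1% (866 higher, 1830 lower). No pairing of arrays with equal replicate numbers was seen. Their deviations from the group means correlated at 0.052, 0.0096 and -0.024, and those of unequal numbers at -0.067 to 0.055. With 3 arrays per group this cannot exclude shared cultures, on which the labels are silent. With the replicate block 1723 genes were called, and Ndrg1 was called and Ndrg3 and Ndrg4 were not, as without it.

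For 57 genes outside the family, 780 of 851 values kept their call or lack of one, 66 lost the call and 5 gained it. None turned direction where either fit called the gene. A sign change of a gene called in neither fit was counted as kept, and 6 neighbours turned sign with 1 array left out. The lists whose counts moved by over 1.5 times with 1 array left out are given with those counts beside the result.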
